A study of Mus musculus with 6 samples.

Results

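The microRNA precursors described here are the microRNA genes that a whole-transcript array reads out by a row of their own, without the miR-302 cluster, which includes Mir367. A row was taken where the platform annotation gives exactly 1 symbol, that symbol names a microRNA or a let-7 gene, and it is neither a host transcript nor one of the 5 precursors of that cluster. Of 305 rows with 1 microRNA symbol, 293 met the rule and gave 291 precursors, set within 19938 named genes on the array. A further 61 rows list a microRNA among several symbols and are not among the 291. Precursors were grouped where their starts lay within 10 kb of each other on 1 strand, which put 142 in 46 clusters of a pair or more and left 149 single. A precursor whose strand was not known could join a neighbour on either strand.

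E14, a line of mouse embryonic stem cells, was profiled on Affymetrix arrays. There were 3 arrays of Tdg knockdown cells and 3 of control cells. The product of Tdg is a DNA repair glycosylase. It excises thymine from mismatches, and also some of the oxidised cytosines that TET enzymes produce. Cells of both groups were kept on 0.1% gelatin with 15% serum and LIF at 1000 units/ml, received lentivirus at a multiplicity of infection of 10, and were selected in puromycin at 2 ug/ml after 48 h. The labels describe neither the hairpin used nor the vector of the control cells, and give no age or further allele. The extraction protocol names Kdm2b knockdown cells, whereas the titles and the design text name Tdg. Whether the 3 arrays of a group stem from independent cultures is not labelled. The spread behind each p-value is that of these arrays and could be technical.

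The rows that list Tdg, each together with the pseudogene Tdg-ps2, averaged 8.11 ± 0.16 (SD, n = 3) in knockdown arrays and 11.14 ± 0.05 (SD, n = 3) in control arrays on the log2 scale, which leaves 12.2% of the control signal. All 10 embryonic stem cell markers checked had mean log2 levels between 10.4 and 13.3. Fibroblast markers lay between 3.88 and 11.0, endoderm markers between 6.26 and 8.33, trophoblast markers between 6.37 and 9.89 and neural markers between 6.95 and 9.39. The median log2 fold change of the 6 neural markers was 0.37, with summed log2 levels of 51.9 to 52.6 in knockdown arrays against 49.9 to 50.3 in controls, and 1 of them passed the test as higher. Their part in the precursor values was not tested.

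MicroRNAs are cut from longer primary transcripts. The nuclease Drosha with Dgcr8 releases a hairpin in the nucleus, Xpo5 exports it, Dicer trims it to a duplex, and 1 strand guides an Argonaute protein to messenger RNAs that pair with its seed, bases 2 to 8. In embryonic stem cells the best known microRNAs promote rapid proliferation, among them those of the miR-17 family, whereas mature let-7 accumulates on differentiation and is held back by Lin28. The array labels long RNA, so a row here reads a precursor or the primary transcript that holds it, and the mature strand was not measured on its own.

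The mature sequences below show which precursors could supply the same seed, since the highest fold changes met in the data lay in families that several genomic clusters share. They were matched by symbol to the RefSeq microRNA table for build GRCm38.p6, which held mature strands for 265 of the 291 precursors. Capitals mark the seed, and each sequence runs 5′ to 3′. The first group carries the seed AAAGUGC, with miR-18a and its seed AAGGUGC set beside it, and comes from the miR-17, miR-106a and miR-106b clusters.
mmu-miR-17-5p: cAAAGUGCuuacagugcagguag
mmu-miR-20a-5p: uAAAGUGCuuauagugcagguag
mmu-miR-106a-5p: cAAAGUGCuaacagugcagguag
mmu-miR-20b-5p: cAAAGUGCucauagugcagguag
mmu-miR-93-5p: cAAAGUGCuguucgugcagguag
mmu-miR-106b-5p: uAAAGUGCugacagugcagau
mmu-miR-18a-5p: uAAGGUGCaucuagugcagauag
The second carries GUGCAAA, and miR-19b-3p is the same from Mir19b-1 as from Mir19b-2.
mmu-miR-19a-3p: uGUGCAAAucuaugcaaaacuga
mmu-miR-19b-3p: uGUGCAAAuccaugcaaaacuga
The third carries AUUGCAC.
mmu-miR-25-3p: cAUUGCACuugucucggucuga
mmu-miR-92a-3p: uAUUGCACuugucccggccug
mmu-miR-363-3p: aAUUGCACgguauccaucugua
The let-7 group carries GAGGUAG, shown for the 3 precursors of the let-7d cluster.
mmu-let-7d-5p: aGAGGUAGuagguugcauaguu
mmu-let-7a-5p: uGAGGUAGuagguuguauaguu
mmu-let-7f-5p: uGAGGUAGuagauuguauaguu

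As a whole the precursors differed little between the groups. The median log2 fold change, knockdown minus control, was 0.04 over the 291 precursors and 0.02 over all named genes, and 191 precursors were higher, 99 lower and 1 equal. The share that was higher was 65.6%, against 55.4% of all named genes. No precursor passed limma's test at an adjusted p of 0.05, where 0.792% of all named genes did (0.241% higher and 0.552% lower), and the smallest adjusted p was 0.0919, for Mir18. At an unadjusted p of 0.05, 10 precursors passed, or 3.44%, against 12.5% of all named genes. Of those 10, 6 were higher (2.06%, with 5.03% in all named genes) and 4 lower (1.37%, with 7.48%).

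The groups did not overlap for 17 precursors (5.84%), a share below the 19% of all named genes. In 13 of them every knockdown array was above every control array (4.47%, with 7.98% of all named genes), and in 4 every knockdown array was below (1.37%, with 11%). The higher set held Mir17, Mir18, Mir92-2, Mir93, Mirlet7d, Mir222, Mir451a, Mir216a, Mir29b-1, Mir31, Mir500, Mir151 and Mir7-2. The lower set held Mir323, Mir381, Mir154 and Mir153, the first 3 from the imprinted region of chromosome 12. With the replicate number as a block, 4 precursors passed, all higher, which is 1.37% of them against 3.08% of all named genes in either direction and 1.07% higher. These were Mir17, Mir18, Mir25 and Mirlet7d, and none passed in the blocked fit without the pair numbered 3.

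**Figure D1:**
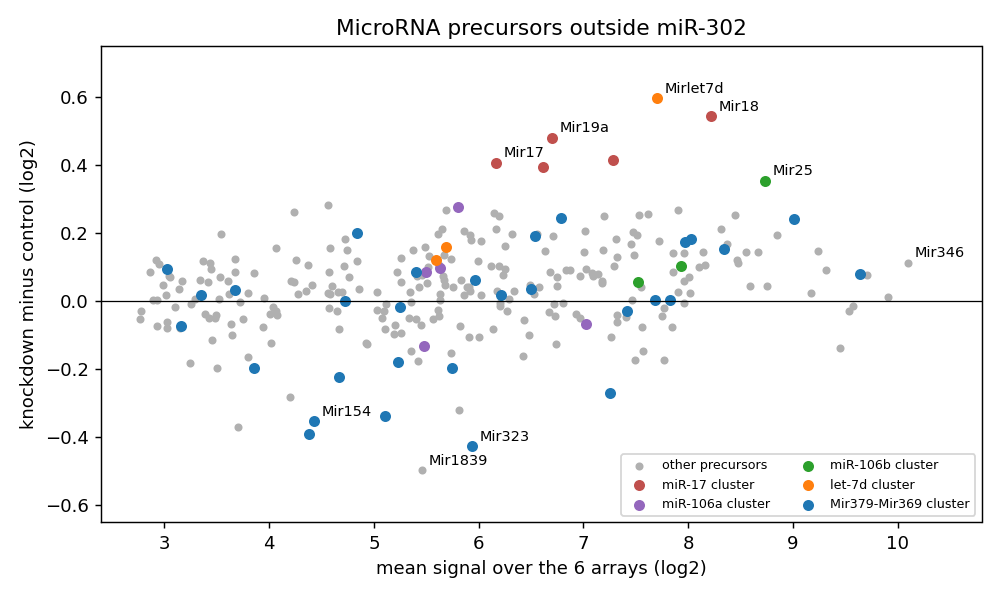
Each point is 1 of the 291 precursors, with the mean log2 signal over the 6 arrays on the x axis and the log2 fold change, knockdown minus control, on the y axis, coloured by genomic cluster. The points of the miR-17 cluster all lie between 0.39 and 0.54, above nearly all others, and Mirlet7d is the highest at 0.60.

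The miR-17 cluster stood highest of the 46 clusters, with a median log2 fold change of 0.41. Its transcript, best known for promoting cell proliferation and for its amplification in human lymphoma, holds Mir17, Mir18, Mir19a, Mir20a, Mir19b-1 and Mir92-1. The 5 with a row of their own span chr14:115043671-115044391 on the plus strand (GRCm38.p6). Mir18, source of miR-18a, had log2 signals of 8.70, 8.51 and 8.27 in knockdown arrays, against 7.97, 7.87 and 8.01 in control arrays. The groups did not overlap, and the lowest knockdown array, replicate 3, lay above the highest control. Mir18 was higher by 0.54 (SE 0.11, 95% interval 0.28 to 0.81, adjusted p = 0.0919). Limma's adjusted p was 0.0488 under the block and 0.0420 with a trended and robust prior. It was 0.0624 under quantile normalization, 0.0793 under median centring and 0.232 with all rows tested. Leaving out 1 array other than knockdown replicate 3 gave 0.201 to 0.397.

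Mir17, source of miR-17-5p, had 6.57, 6.24 and 6.31 in knockdown arrays, against 6.11, 5.83 and 5.96 in controls. Here too every knockdown array was above every control, and each exceeded the control of its own number. The log2 fold change was 0.41 (SE 0.11, adjusted p = 0.173), and the block gave adjusted p = 0.0292.

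The other 3 precursors of the cluster overlapped between the groups. Mir19a, which carries the GUGCAAA seed, had 7.42, 7.14 and 6.26 in knockdown arrays, against 6.53, 6.36 and 6.49 in controls. Knockdown replicates 1 and 2 were above all controls and replicate 3 below all of them, so the log2 fold change of 0.48 came with an SE of 0.27 (adjusted p = 0.555). Mir20a had 7.07, 6.89 and 6.46 in knockdown arrays, against 6.67, 6.23 and 6.34 in controls, a log2 fold change of 0.39 (SE 0.18, adjusted p = 0.429). Mir19b-1 had 7.96, 7.50 and 7.02 in knockdown arrays, against 7.38, 6.69 and 7.17 in controls, a log2 fold change of 0.41 (SE 0.26, adjusted p = 0.609). In both, replicate 3 was the lowest knockdown array and fell inside the control range.

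The size of the difference thus varied among the knockdown arrays. The median deviation of the 5 precursors from their control means was 0.75 in knockdown replicate 1, 0.48 in replicate 2 and 0.05 in replicate 3, against 0.14, -0.14 and 0.03 in the 3 controls. Leaving out 1 array moved the cluster median to between 0.26, without knockdown replicate 1, and 0.65, without knockdown replicate 3. Without replicate 1 Mir19a was at 0.24, Mir19b-1 at 0.18 and Mir20a at 0.26, and Mir19b-1 was at 0.22 without control replicate 2. Mir17 and Mir18 stayed at 0.31 or above and 0.44 or above. Without knockdown replicate 3, Mir18 was higher by 0.66 (adjusted p = 0.0219) and Mir19a by 0.82 (adjusted p = 0.0199), and these were the only precursors of the 291 to pass in that fit (0.687%, against 1.45% of all named genes in either direction and 0.657% higher). Mir17, Mir20a and Mir19b-1 were higher by 0.44, 0.57 and 0.65 without that array and did not pass.

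Rows outside the rule read the same transcript. The host transcript Mir17hg had 8.63, 8.08 and 8.16 in knockdown arrays, against 8.03, 7.65 and 7.98 in controls. Its groups did not overlap, with a log2 fold change of 0.40 (SE 0.17, adjusted p = 0.380, and 0.0703 under the block). A row that lists Mir92-1 or Mir17hg had 8.74, 8.37 and 8.31 in knockdown arrays, against 7.95, 7.33 and 8.07 in controls. It too did not overlap, at a log2 fold change of 0.69 (SE 0.22, adjusted p = 0.436 over all rows). These rows share RNA with the 5 precursors and are no independent measure of the locus.

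**Figure D2:**
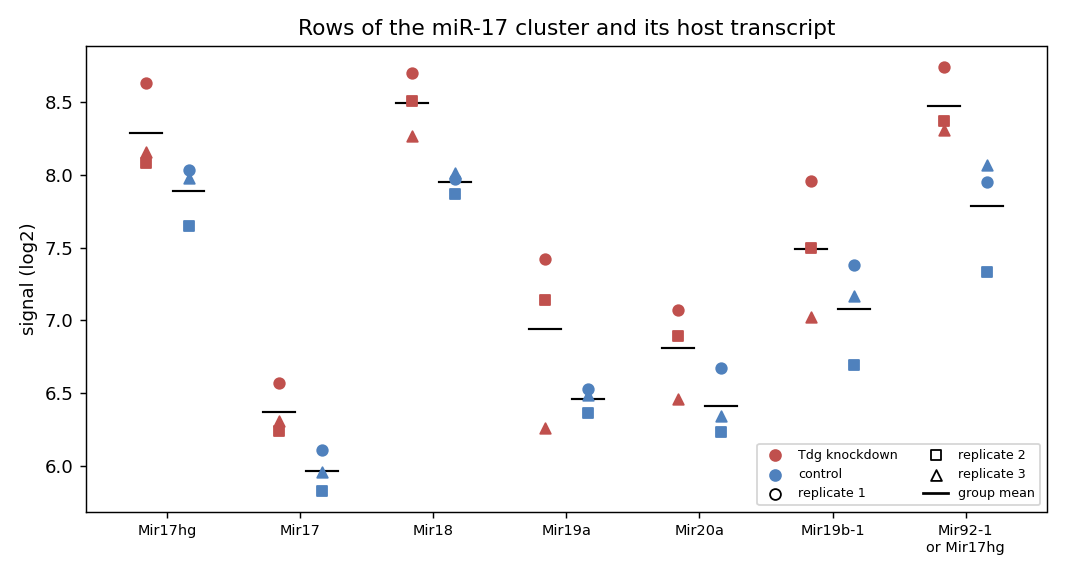
Log2 signal (y axis) of the miR-17 cluster's rows in each array, with Tdg knockdown in red to the left of control in blue, marker shapes for replicate numbers and bars at group means. Mir17, Mir18, Mir17hg and the row listing Mir92-1 or Mir17hg do not overlap between the groups, while knockdown replicate 3 falls within or below the controls for Mir19a, Mir20a and Mir19b-1.

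The paralogous clusters had smaller fold changes. The miR-106a cluster, at chrX:52741693-52742567 on the minus strand, repeats the order of the miR-17 cluster in part, and its 5 precursors had a median of 0.09, between -0.13 for Mir20b and 0.28 for Mir92-2. Mir92-2, which yields the same miR-92a-3p as Mir92-1, had 5.93, 5.94 and 5.95 in knockdown arrays, against 5.63, 5.63 and 5.73 in controls. The knockdown arrays lay close together and above all controls, and the adjusted p was 0.106 (SE 0.06). Mir363 had 7.25, 7.34 and 6.38 in knockdown arrays, against 7.31, 7.01 and 6.85 in controls, a fold change of -0.07. Replicate 3 was again the lowest knockdown array, and without it Mir363 was higher by 0.24. Mir106a and Mir19b-2 were higher by 0.09 and 0.10 and overlapped between the groups.

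The miR-106b cluster lies at chr5:138165321-138165818 on the minus strand, inside Mcm7, which encodes a subunit of the replicative helicase. Its 3 precursors had a median of 0.10. Mir25, with the AUUGCAC seed, had 8.75, 8.78 and 9.20 in knockdown arrays, against 8.36, 8.52 and 8.79 in controls. Each knockdown array exceeded the control of its own number while the groups overlapped, and the log2 fold change was 0.35 (SE 0.15, adjusted p = 0.414, and 0.0394 under the block). Without knockdown replicate 3 it was 0.21. Mir93 had 7.97, 7.96 and 8.02 in knockdown arrays, against 7.89, 7.82 and 7.93 in controls, a small difference of 0.10 without overlap (adjusted p = 0.586). Mir106b was higher by 0.06, and Mcm7 itself by 0.05 (adjusted p = 0.811).

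Read by seed, the log2 fold changes of the 6 precursors with AAAGUGC had their median at 0.10 and ran from -0.13 for Mir20b to 0.41 for Mir17. Mir17 and Mir20a, both of the miR-17 cluster, were the highest in this group, and the other 4 lay at 0.10 or below. The 3 precursors with GUGCAAA ran from 0.10 for Mir19b-2 to 0.48 for Mir19a. With AUUGCAC, 5 precursors ran from -0.07 to 0.35. Of the 265 precursors with a mature sequence, 131 shared a seed with another, over 65 seeds.

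Mirlet7d had the highest fold change of all precursors. It lies with Mirlet7f-1 and Mirlet7a-1 at chr13:48536012-48538272 on the minus strand, and belongs to the let-7 family, whose mature forms repress growth genes in differentiated cells. Mirlet7d had 8.38, 7.98 and 7.65 in knockdown arrays, against 7.61, 7.27 and 7.34 in controls. Every knockdown array was above every control, replicate 3 by the least, and the log2 fold change was 0.60 (SE 0.18, 95% interval 0.16 to 1.03, adjusted p = 0.231, and 0.0393 under the block). Its neighbours differed less. Mirlet7f-1 was higher by 0.16 and Mirlet7a-1 by 0.12, and both overlapped between the groups. The median deviation of the 3 from their control means was 0.61, 0.09 and 0.23 in knockdown replicates 1, 2 and 3. Over the 10 let-7 precursors with a row of their own the fold changes ran from -0.05 to 0.60 with a median of 0.05, 6 higher and 4 lower. Mirlet7c-2 and Mirlet7b, outside the rule in rows that also list Lncppara, were higher by 0.30 and 0.17.

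**Figure D3:**
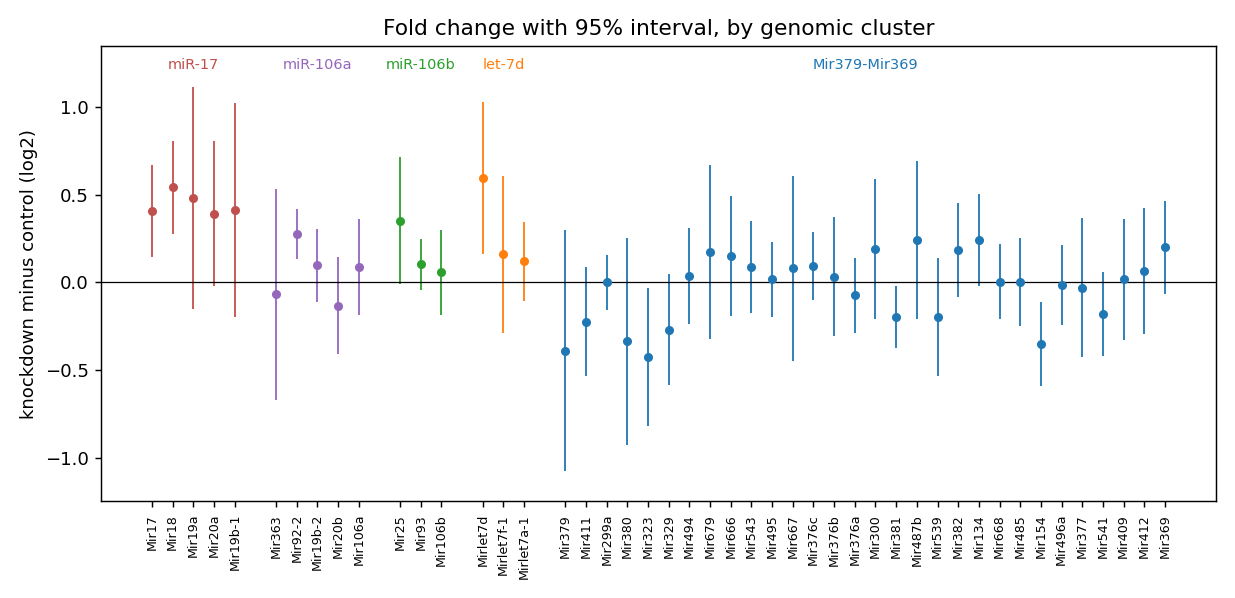
Log2 fold change (y axis, points) with limma's 95% interval (lines) for each precursor of the miR-17, miR-106a, miR-106b, let-7d and Mir379-Mir369 clusters, in genomic order from left to right. The 5 points of the miR-17 cluster are all near or above 0.4, whereas those of the Mir379-Mir369 cluster lie on both sides of 0, from -0.43 to 0.24.

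The precursors of the imprinted Dlk1-Dio3 region of chromosome 12, which are transcribed from the maternal chromosome, made up 40 of the 291. Of these, 21 were higher and 18 lower, and their median was 0.00. The array rows of Meg3 and Rian, long noncoding RNAs of the region, differed by -0.04 and 0.12. The Mir379-Mir369 cluster, with 30 precursors, had a median of 0.01, its highest fold change in Mir487b at 0.24 and its lowest in Mir323 at -0.43. Mir487b was at 0.10 without control replicate 2 and at 0.46 without control replicate 3, and Mir323 at -0.27 without control replicate 3. In the Mir337-Mir136 cluster of 7 precursors the range was -0.08 for Mir337 to 0.17 for Mir127, which was at 0.02 without knockdown replicate 3 and at 0.31 without replicate 2.

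The Mir379-Mir369 cluster held 3 of the 4 precursors that were below the controls in every knockdown array. Those 3 are 10% of its 30 precursors, a share near the 11% of all named genes. Mir154 had 4.41, 4.14 and 4.21 in knockdown arrays, against 4.51, 4.54 and 4.77 in controls, a log2 fold change of -0.35 (SE 0.10, adjusted p = 0.200). Mir323 had 5.77, 5.46 and 5.95 in knockdown arrays, against 5.97, 6.03 and 6.46 in controls, or -0.43 (SE 0.17, adjusted p = 0.357). Mir381 had 3.81, 3.79 and 3.68 in knockdown arrays, against 3.98, 4.04 and 3.85 in controls, or -0.20 (adjusted p = 0.349). The gap between the nearest arrays of the groups was narrow for Mir323 and Mir381, and the mean signals of Mir154 and Mir381 were among the 97 dimmest, at 5.10 or below. Mir329 of the same cluster was at -0.27 (adjusted p = 0.487) with overlap.

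Elsewhere, Mir153 was the remaining precursor lower in every knockdown array. It lies alone on chromosome 12 inside Ptprn2, a gene of secretory granules, and had 4.07, 4.0 and 4.11 in knockdown arrays, against 4.30, 4.50 and 4.23 in controls (-0.28, SE 0.09, adjusted p = 0.219). Mir421 and Mir374b, neighbours on the X chromosome, were at -0.37 and -0.18, and at -0.22 and -0.12 without control replicate 1. Their mean log2 signals ran from 3.245 to 3.705. Like Mir153, they were among the 97 dimmest precursors. Mir690 was at -0.16. On the higher side, Mir592 was at 0.28 (adjusted p = 0.354), Mir151 at 0.27 (adjusted p = 0.365) and Mir451a at 0.26 (adjusted p = 0.427). Mir451a is the precursor that Ago2 cuts without Dicer, and its signal was 4.16, 4.33 and 4.63 in knockdown arrays, against 4.09, 4.09 and 4.15 in controls. In Mir451a and Mir151 the highest knockdown array was replicate 3, without which Mir451a was at 0.14.

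Families known for other roles spanned small ranges. The miR-200 family, which holds cells in an epithelial state, had 4 precursors with a row of their own, higher by 0.05 to 0.21. The 3 of the miR-34 family, targets of p53, were higher by 0.04 to 0.21. None of these had an adjusted p under 0.668. Mir429, also of the miR-200 family, was higher by 0.05 in a row that lists Gm13648 too. In the miR-500 cluster the range was -0.09 for Mir532 to 0.20 for Mir500, which was at 0.07 without knockdown replicate 3. In the miR-450 cluster it was -0.10 for Mir542 to 0.07 for Mir450-2. The 149 single precursors had a median of 0.04 and ran from -0.50 to 0.28.

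The spread between arrays was wider for precursors than for other genes. The median pooled SD was 0.18 on the log2 scale, against 0.11 for all named genes, and the median SE of a fold change was 0.12, against 0.09. Limma's 95% interval lay within 1 log2 unit of 0 for 284 precursors and within 0.5 for 207. The 7 whose interval reached further included Mirlet7d, Mir19a and Mir19b-1, along with Mir379, Mir186, Mir1839 and Mir505.

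Signals were low. The median precursor had a mean log2 signal of 5.75, against 7.96 over all named genes, and 34 precursors (11.7%) exceeded that median of all named genes. Signals of different probe sets depend on their probes, so their order is no order of abundance. Mir346 had the highest mean signal, at 10.1, with Mir692-1, Mir139, Mir667, Mir680-3, Mir341, Mir6516, Mir598, Mir210 and Mir7-1 next, down to 9.17. Among these 10 the fold changes ran from -0.14 for Mir6516 to 0.15 for Mir210, the precursor known for its induction by hypoxia. Without knockdown replicate 3 these extremes were at -0.01 and -0.03. None of the 10 stood apart between the groups.

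Base composition went with the signal. Over the 253 precursors with a RefSeq hairpin, the mean log2 signal and the GC share of the hairpin had a Pearson's r of 0.72 and a Spearman's rho of 0.72, a description across precursors that share the same 6 arrays. The deviation of each precursor in an array from its mean over the 6 arrays also went with GC. Pearson's r was -0.24, -0.27 and 0.49 in knockdown replicates 1, 2 and 3, and -0.44, -0.09 and 0.29 in control replicates 1, 2 and 3. Knockdown replicate 3 was the highest or the lowest of the 6 arrays for 176 of the 291 precursors, the highest for 136 of them.

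The sign of the median over the whole set changed when that array alone was left out. The median deviation of the 291 precursors from their control means was 0.03, -0.06 and 0.14 in knockdown replicates 1, 2 and 3, against -0.02, -0.05 and 0.06 in the controls. Without knockdown replicate 3 the median log2 fold change was -0.02 over the precursors and -0.01 over all named genes. In the blocked fit without both arrays numbered 3, it was 0.02 over the precursors and 0.01 over all named genes. Named genes at the levels of the dimmest 97 precursors deviated in replicate 3 from the 6-array mean by a median of 0.13, against 0.04 for those precursors. At the levels of the middle 97 it was 0.215 against 0.13, and of the brightest 97 -0.03 against 0.28. The median fold changes in these ranges were 0.06, 0.08 and -0.01 for named genes, against 0.02, 0.04 and 0.09 for precursors. In the 63 hairpins richest in GC, 54.0% to 69.2%, the median deviation in knockdown replicate 3 from the 6-array mean was 0.31. The median fold change of those 63 was 0.08. The 64 hairpins lowest in GC, 28.4% to 42.5%, had a median fold change of -0.01.

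The precursors of the miR-17 cluster had hairpin GC shares between 43.7% and 45.8%. The 63 hairpins of the series with 42.6% to 47.4% GC, among which they fall, had median deviations of 0.07, -0.06 and 0.08 in knockdown replicates 1, 2 and 3, and a median fold change of 0.03. Mirlet7d, at 44.7% GC, lay in that range too, and Mir25, at 63.1%, among the 63 richest in GC.

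**Figure D4:**
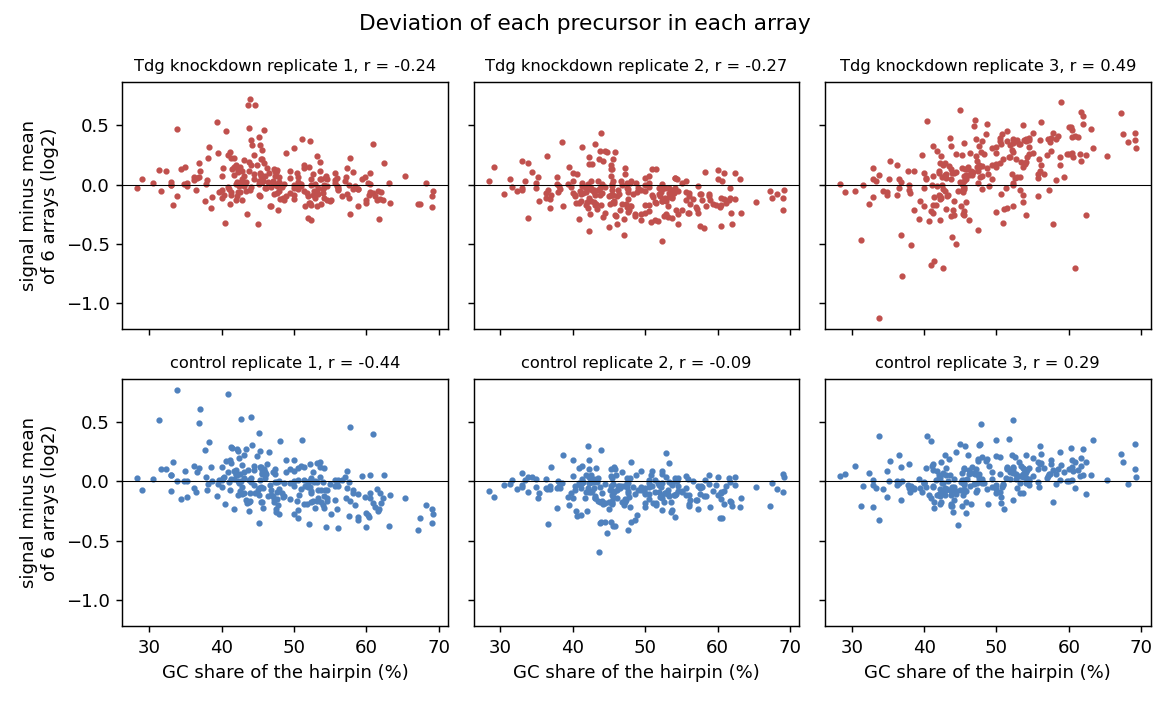
One panel per array, knockdown above control, with the GC share of the hairpin in percent on the x axis and the log2 signal minus the mean of the 6 arrays on the y axis, for the 253 precursors with a hairpin sequence. The points climb with GC in knockdown replicate 3 (r = 0.49) and control replicate 3 (r = 0.29) and decline in control replicate 1 (r = -0.44).

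Many precursors lie inside another gene, so their rows can be set beside those of their hosts. For 96 precursors a host with a row of its own held the hairpin on the same strand, which gave 97 pairs over 76 hosts. The direction was shared in 47 pairs (48.5%), and across pairs the fold changes had a Pearson's r of -0.06 and a Spearman's rho of -0.03. The pairs share arrays, and several precursors share a host. Mir17hg was not among these hosts, because its span in the RefSeq table does not hold the 5 precursors of the miR-17 cluster. With it added, in a setting chosen after seeing the data, the direction was shared in 52 of 102 pairs (51.0%), at a Pearson's r of 0.22 and a Spearman's rho of 0.11.

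1 host of 76 passed the test (1.32%, against 0.792% of all named genes), and 5 passed under the block (6.58%, against 3.08%). Calcr, the calcitonin receptor, had 7.47, 7.39 and 7.25 in knockdown arrays, against 7.83, 7.83 and 7.84 in controls, a log2 fold change of -0.46 (SE 0.07, adjusted p = 0.0482). The precursors within it, Mir489 and Mir653, were at 0.07 and -0.02. Lpp, which encodes an adhesion protein with LIM domains, had the largest host difference, at -0.72 (SE 0.17, adjusted p = 0.131, and 0.0246 under the block), while its precursor Mir28a was at 0.12. Clcn5, a chloride and proton exchanger that holds the miR-500 cluster, was at -0.43 (adjusted p = 0.128, and 0.0430 under the block), against a median of 0.02 in that cluster. Focad was at -0.40 (adjusted p = 0.0652, and 0.0392 under the block) and its precursor Mir491 at 0.00. Nexmif, the highest host at 0.44 (adjusted p = 0.376, and 0.0355 under the block), holds Mir672, at 0.09. Of the hosts of other precursors named above, Ptprn2 was at 0.07 where Mir153 was at -0.28, Grm8 at 0.01 where Mir592 was at 0.28, and Fgf12 at 0.03 where Mir690 was at -0.16. Hnrnpk, Pde2a and Rian, the hosts of Mir7-1, Mir139 and Mir341, were at -0.03, -0.03 and 0.12.

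**Figure D5:**
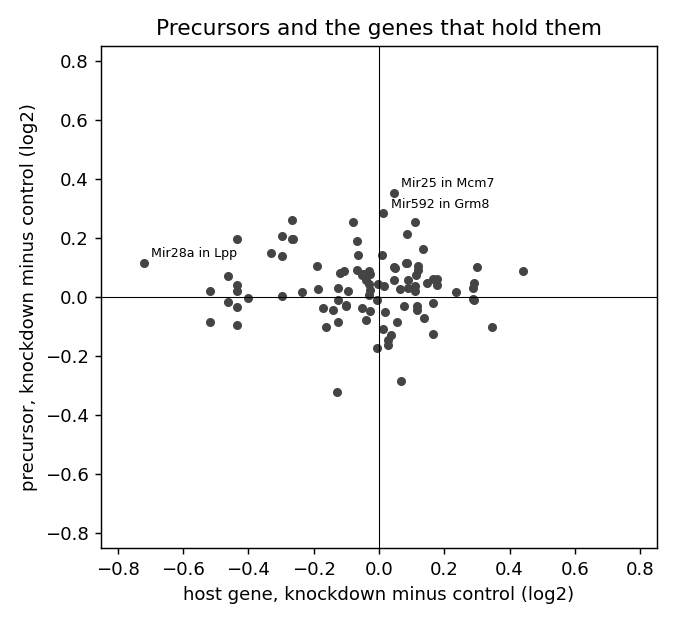
Log2 fold change of each precursor (y axis) against that of the gene that holds it (x axis), knockdown minus control, for 97 pairs. Points fill all 4 quadrants, and the hosts spread from -0.72 to 0.44 while their precursors lie between -0.32 and 0.35.

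Of 30 listed genes that make or use microRNAs, 29 were measured and none passed limma's test after adjustment, while Hnrnpa1 was not analysed here. At an unadjusted p of 0.05, 3 passed (10.3%, against 12.5% of all named genes), and under the block 2 did (6.90%, against 3.08%). Srrt, a partner of the cap-binding complex in primary microRNA processing, had 11.28, 11.35 and 11.32 in knockdown arrays, against 10.98, 11.00 and 11.07 in controls. Its groups did not overlap, and it was higher by 0.30 (SE 0.06, adjusted p = 0.0871, and 0.0493 under the block). Dis3l2, an exonuclease that degrades uridylated let-7 precursors, had 9.55, 9.64 and 9.40 in knockdown arrays, against 9.87, 9.88 and 9.74 in controls. Every knockdown array was below every control, at -0.30 (SE 0.08, adjusted p = 0.178, and 0.0494 under the block).

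The remaining processing genes differed less. Ago4, an Argonaute protein, was at -0.16 (adjusted p = 0.392), Drosha at 0.15 (adjusted p = 0.454), Tnrc6a, a silencing factor that binds Argonaute, at -0.17 (adjusted p = 0.521), and Mov10, an RNA helicase, at 0.11 (adjusted p = 0.539). The median over the 29 genes was 0.00. Lin28a and Lin28b, which block let-7 processing, were at 0.09 and -0.01, and Dicer1 was at -0.03.

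Of the 61 rows that list a microRNA among several symbols, 27 list 1 microRNA with another gene, and of these 14 were higher and 13 lower. The other 34 list several microRNAs, of which 5 were higher and 29 lower. None of the 61 passed limma's test over all rows, and 2 had an unadjusted p under 0.05 (3.28%). The share of all named genes, 12.5%, comes from the main fit on named genes, so the shares are not directly comparable. Of the 29 lower rows, 22 list copies of Mir669a or Mir467a and hold only 2 distinct sets of values, 13 rows at -0.26 and 9 rows at -0.16, so they count as 2 measurements. Copies of Mir3084, Mir683 and Mir465 have 2 lower rows each, and each such pair holds only 1 set of values. The miR-290 cluster, the most studied microRNA cluster of embryonic stem cells, was not analysed here.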

How the data were processed

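RNA of 6 samples was read on Affymetrix arrays. The deposited table holds a log2 signal for each probe set on each array. According to the submitters' processing notes the authors used Affymetrix Expression Console. Its version and the normalization between arrays were not given in the sources used here. They ran from 2.26 to 14.03, with array medians of 7.41 to 7.48, and were used without further scaling. The number of arrays limits the precision.

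Of 35557 rows, 21789 list 1 symbol, and 21698 of these were matched to RefSeq genes of build GRCm38.p6, whose names and coordinates were used. The row with the highest mean was taken per symbol. R 4.3.3 with limma 3.58.1 was used to fit lmFit and eBayes, two-sided, on the 19938 named genes with Benjamini-Hochberg adjustment over all of them, and was tested on simulated data. Fold changes are knockdown minus control. Exact permutation of 3 against 3 arrays cannot go below 0.1.

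Replicate numbers were checked for pairing: same-numbered arrays deviated together at correlations of 0.61, 0.23 and 0.70. Knockdown replicate 2, however, correlated better with control replicate 1, at 0.44. The main fit did not use the numbers and took the arrays as unpaired. Among the fits, only the blocked ones, which are alternatives, treated equal numbers as pairs. The comparisons of Mir17 and Mir25 with the control of the same number are descriptions without a test. The labels do not say what a shared number means. The blocked value is given where it changes a call.

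The rule for named precursors took the miR-290, miR-17, miR-106a and miR-106b clusters, the 10 highest signals, the 8 smallest p in each direction, and the extremes of each other cluster of 4 or more. It added the let-7, miR-200 and miR-34 families by range, the hosts of named precursors, and the processing genes past the threshold or else the 3 with the smallest p in each direction. Precursors named for groups that do not overlap or for the width of their interval, and the hosts Calcr, Lpp, Clcn5, Focad and Nexmif with their precursors, were added after their values were seen, as were Mirlet7f-1, Mirlet7a-1, Meg3, Rian, Lin28a, Lin28b and Dicer1. Members and lists were chosen with earlier results of these data known. Alternatives were the block, other scalings, filters, priors, array weights and leaving out each array.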

Additional observations from a re-analysis of the deposited data

How the results depend on the processing

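The count of precursors past the threshold was 0 and stayed 0 under quantile normalization, median centring, the mean of a symbol's rows, a test of all rows and a minimum fold change of 1.5. The replicate block gave 4, a trended and robust prior 1 (Mir18), an unadjusted p 10, and array weights estimated gene by gene 10, of which 9 were higher. Without the dimmest rows, the lower 1 in 3 by mean signal, it was 0 of the 108 precursors left. For the trended and robust prior, the gene-by-gene weights and the fit without the dimmest rows, the share of all named genes is not given. The counts of precursors and processing genes in those fits are therefore not read as a result about them. The gene-by-gene weights, and the block without the pair numbered 3, which gave 0, were chosen after seeing the data; limma's default array weights did not converge and were not used. Leaving out 1 array gave 0 to 2, with the 2 only without knockdown replicate 3. The median fold change stayed between -0.02 and 0.09 over the settings that change fold changes, gene-by-gene weights (0.04) included, and was negative only without knockdown replicate 3. The count of processing genes was 0, and became 2 with the block, 1 without the dimmest rows, 1 with the trended and robust prior, 2 with gene-by-gene weights and 3 at an unadjusted p; leaving out 1 array gave 0 to 0. Of the 42 precursors chosen by the rule, Mir680-3 was at 0.0267 under quantile normalization, against -0.01 without it. Leaving out 1 array turned the sign of 12 with small fold changes, whose ranges were -0.045 to 0.12 for Mir106b, -0.02 to 0.14 for Mir139, -0.0333 to 0.24 for Mir210, -0.18 to 0.035 for Mir337, -0.0783 to 0.0433 for Mir341, -0.24 to 0.24 for Mir363, -0.24 to 0.0567 for Mir542, -0.0783 to 0.22 for Mir598, -0.16 to 0.27 for Mir667, -0.10 to 0.14 for Mir680-3, -0.0733 to 0.15 for Mir692-1 and -0.0817 to 0.11 for Mir7-1. The block added calls for the 4 precursors, for Srrt and Dis3l2, and for the hosts Lpp, Clcn5, Focad and Nexmif, and changed no other call among precursors, listed processing genes and hosts. Leaving out 1 array moved 31 of the 42 by over 1.5 times or turned their sign, and the other 11, among them Mir17, Mir18, Mir92-2 and Mirlet7d, by less. The cause of these moves was not tested.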
